A study of Rattus norvegicus with 12 samples.

Results

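Cardiac ion channel genes were measured in newborn rat cardiomyocytes in culture after treatment with DEHP, the plasticiser di(2-ethylhexyl) phthalate. The members were a fixed list of 36 genes for pore-forming and accessory subunits of potassium, sodium, calcium and pacemaker channels, together with a cation and a chloride channel. A member counted as measured where a probe set carried its symbol and no other, which held for 35 of the 36, out of 14324 genes in all. Kcnn2 was not analysed here. The measured members comprised 24 potassium channel genes (9 of inward rectifiers, 7 of delayed rectifiers, 5 of the transient outward current and 3 of leak channels), 1 sodium channel gene, 6 calcium channel genes, 2 pacemaker channel genes, and Trpm4 and Clcn3.

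The cells were isolated enzymatically from the hearts of Sprague-Dawley rat pups 2 days old and grown for 3 days. The 4 groups then received the vehicle alone, 0.1% dimethyl sulphoxide (DMSO), or DEHP at 1, 10 or 50 µg/ml in the same 0.1% DMSO, for 3 days, with 3 arrays per group and 12 in all. Arrays within a group are described as biological replicates, all from 1 litter, so a p-value here covers only culture-to-culture spread within that litter. Primary cultures of this kind can hold cells other than muscle cells, and bulk RNA cannot tell fewer cells of a type from less RNA per cell.

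The cardiac action potential is shaped by channels that open in sequence. Sodium channels start it in working muscle, L-type calcium channels hold the plateau and trigger contraction, transient outward and delayed rectifier potassium channels repolarise the membrane, and inward rectifiers set the resting potential. T-type calcium channels and the hyperpolarisation-activated HCN channels drive the slow depolarisation of pacemaker cells, and both are more widespread in the fetal and newborn heart than in the adult. ATP-sensitive potassium channels open when cellular energy falls, and acetylcholine-activated channels slow the heart under vagal control.

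The deposited values are ratios of each array to the median of the 12 arrays for the same probe set. All values below are log2 of that ratio, or differences of it between group means with the standard error (SE) of the fit, with n = 3 arrays per group. A ratio carries no level, so genes cannot be ranked by abundance and closeness to background is unknown. The sources do not record which way the ratio was formed, and it was taken with the array as numerator. If it had been formed the other way, each rise below would be a fall of the same size. The cardiomyocyte list had values for 12 of its 12 markers, among them Tnnt2, Tnni3, Actn2 and Myh6, and the macrophage list for 17 of 17. A value does not show that a gene is expressed, and without levels the labelled cell type could not be checked. The log2 spread over all probe sets ran from 0.0869 to 0.0918 on the vehicle arrays and from 0.166 to 0.199 at 50 µg/ml. At 10 µg/ml replicate 2 stood apart from its group, at 0.17 against 0.0881 and 0.0967.

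The highest dose, 50 µg/ml, was compared with the vehicle first. Of the 35 measured members, 12 were higher, 3 were lower and 20 did not pass the threshold, an adjusted p under 0.05 from limma over all 14324 genes. This was 42.9% of the members, beside 17.6% of all genes tested (8.75% higher and 8.84% lower). The members were chosen with earlier results of these data known, which can raise their share above the background in this and the other comparisons. The excess is therefore not a result about channel genes in general. Of 125 other channel genes and regulators, 7 were higher and 14 lower. Both pacemaker genes, 4 of 6 calcium channel genes and 6 of 24 potassium channel genes rose, 3 potassium channel genes fell, and Scn4b, Trpm4 and Clcn3 did not pass. Whether these shares differ between channel classes was not tested. The median difference of the members was 0.07, and that of all genes was 0.02. The 3 arrays of the 2 groups did not overlap in 17 members (48.6%), beside 36.0% of all genes, and in 14 of them the treated arrays were higher, beside 19.5%. Markers of macrophages and other leukocytes were lower on the same arrays, in 16 of 17 genes (array medians -1.17 to -0.96 against 0.17 to 0.26), and their part in the channel results was not tested.

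**Figure D1:**
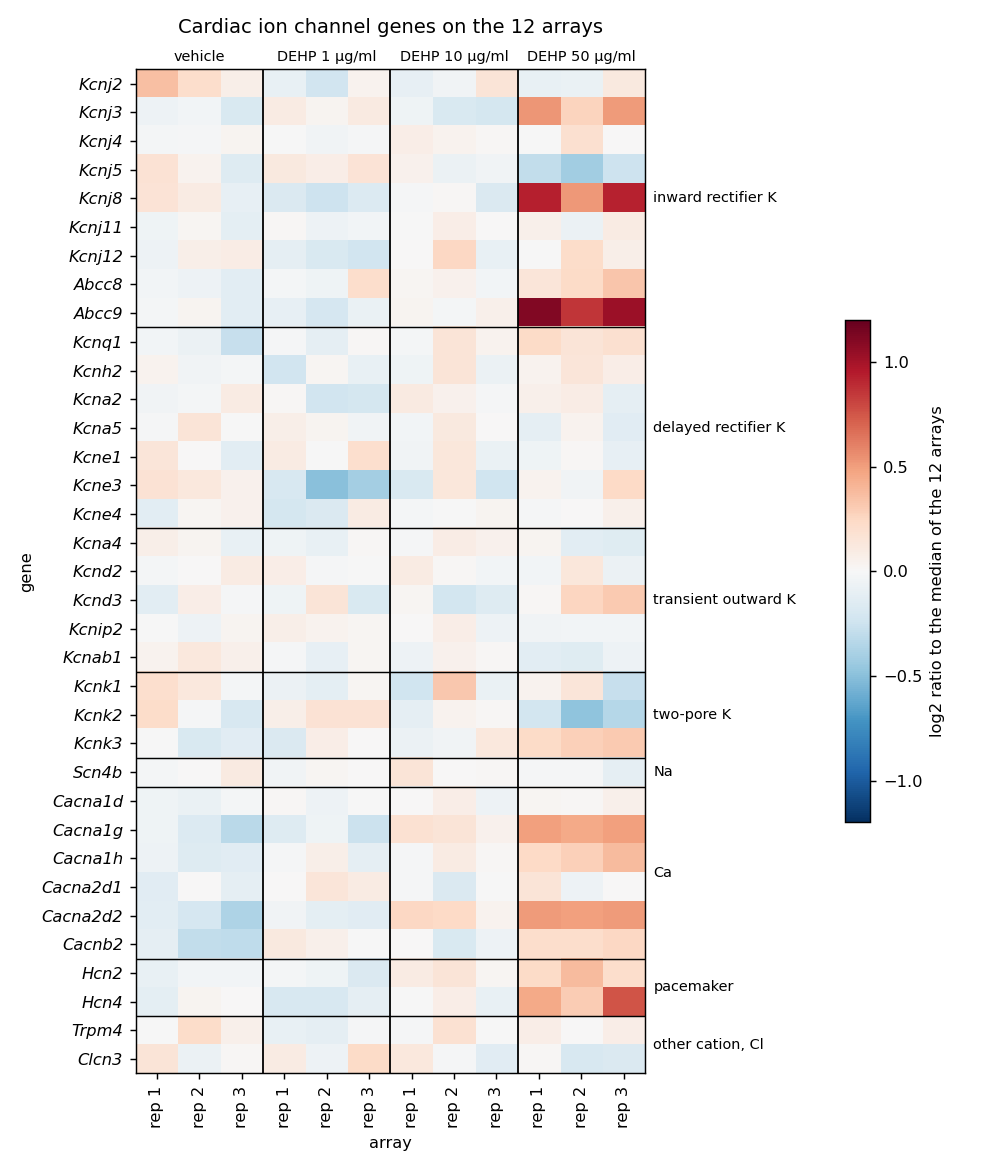
Heat map of the log2 ratio to the median of the 12 arrays for the 35 measured channel genes (rows, grouped by channel class) on the 12 arrays (columns, 3 per group). The 50 µg/ml columns are darkest red for Abcc9 (up to 1.11) and Kcnj8 (up to 0.94), and are also red for Cacna1g, Cacna2d2 and Hcn4, whereas Kcnj5 and Kcnk2 are blue there.

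Both genes of an ATP-sensitive potassium channel found in vascular smooth muscle rose. Kcnj8 encodes its pore subunit and Abcc9 a sulphonylurea receptor subunit that pairs with it, though not with this pore alone. Kcnj8 stood at 0.16, 0.10 and -0.09 on the vehicle arrays and at 0.94, 0.52 and 0.92 at 50 µg/ml. Its 50 µg/ml arrays lay above all 9 others, although replicate 2 was lower than the other two. The rise was 0.74 ± 0.10 (1.66-fold, limma adjusted p = 0.00029). Abcc9 stood at -0.02, 0.03 and -0.13 with vehicle and at 1.11, 0.86 and 1.03 at 50 µg/ml, with the same array lowest among the treated. It rose by 1.04 ± 0.07 (2.05-fold, adjusted p = 7.33e-07), the largest difference of any member in this comparison. Abcc9 was the only member with 2 probe sets, and they gave 1.09 and 0.99. At 1 and 10 µg/ml Kcnj8 had differences of -0.25 and -0.11 and Abcc9 of -0.09 and 0.06, and none of these passed. A repeated quantile normalization, which forces the arrays to the same spread, moved the Kcnj8 difference to 0.46 (adjusted p = 0.00575). It was run on the log2 ratios, not on intensities, so it does not repeat the authors' step and also evens out the wider spread of the 50 µg/ml arrays.

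Kcnj8 and Abcc9 are neighbours on rat chromosome 4, with 0 protein-coding genes between them in the RefSeq table of GRCr8. The sequences before their annotated starts are shown because these genes moved together, and those of Cacna2d2 and Hcn2 because they are the calcium and pacemaker genes that rose and have 1 start in the table. The RefSeq promoter table (GRCr8) held 24 of the 35 measured members, and 8 of the 15 that passed at 50 µg/ml, 6 of them with exactly 1 start. Each run gives the 250 bases before the start, 5′ to 3′ on the gene's strand, with matches to the GC box (GGGCGG or its complement CCGCCC) in capitals.
Kcnj8, chr4:177246549-177246798, minus strand: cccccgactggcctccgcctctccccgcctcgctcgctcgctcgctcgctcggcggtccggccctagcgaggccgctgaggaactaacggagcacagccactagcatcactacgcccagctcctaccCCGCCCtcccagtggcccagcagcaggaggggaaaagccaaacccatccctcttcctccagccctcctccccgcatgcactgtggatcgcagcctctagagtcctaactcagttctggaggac
Abcc9, chr4:177386349-177386598, minus strand: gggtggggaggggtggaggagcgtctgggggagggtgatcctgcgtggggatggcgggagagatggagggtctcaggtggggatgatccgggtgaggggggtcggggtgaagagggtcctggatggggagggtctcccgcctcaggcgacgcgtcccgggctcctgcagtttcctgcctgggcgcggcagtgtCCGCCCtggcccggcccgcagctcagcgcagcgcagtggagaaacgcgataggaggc
Cacna2d2, chr8:116950856-116951105, plus strand: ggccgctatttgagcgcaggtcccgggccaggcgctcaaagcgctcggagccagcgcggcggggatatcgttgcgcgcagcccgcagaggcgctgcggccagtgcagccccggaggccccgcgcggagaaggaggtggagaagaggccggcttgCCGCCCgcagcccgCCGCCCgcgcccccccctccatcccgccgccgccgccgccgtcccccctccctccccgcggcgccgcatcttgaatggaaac
Hcn2, chr7:10639458-10639707, minus strand: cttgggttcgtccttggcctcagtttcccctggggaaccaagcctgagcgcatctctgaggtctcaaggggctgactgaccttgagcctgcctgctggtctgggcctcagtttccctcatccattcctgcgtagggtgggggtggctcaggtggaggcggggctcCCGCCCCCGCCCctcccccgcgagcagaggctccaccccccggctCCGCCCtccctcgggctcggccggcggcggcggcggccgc
GC box matches numbered 1 for Kcnj8, 1 for Abcc9, 2 for Cacna2d2 and 3 for Hcn2, and 30.5% of all 33469 windows of this length hold at least 1. Kcnj5, which fell, had 2 and Kcnab1, which also fell, had 0. Guanine and cytosine made up 66.8% of the Kcnj8 window, 71.2% of Abcc9, 76.8% of Cacna2d2 and 71.6% of Hcn2. In the windows of Kcnj5 and Kcnab1 they made up 57.2% and 56%. The median was 51.2% over all windows, which were not limited to genes with 1 start. An E box (CANNTG) occurred in the windows of Abcc9, Hcn2 and Kcnj5 (1 each) and in 65.5% of all windows. The AP-1 site (TGANTCA), the GATA site (AGATAA) and the TATA box (TATAAA), searched on both strands, had 0 matches in any of the 6 windows, and 6.34%, 10.3% and 12.9% of all windows hold them. These matches are descriptions of the letters, not of bound sites.

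Of the other ATP-sensitive channel subunits, Abcc8 rose and Kcnj11 did not pass. Kcnj11, the pore subunit of working heart muscle, had -0.05, 0.03 and -0.11 with vehicle and 0.06, -0.07 and 0.09 at 50 µg/ml. These groups overlapped, and the difference of 0.07 ± 0.05 did not pass (adjusted p = 0.429). Abcc8, the sulphonylurea receptor best known from pancreatic beta cells and also present in atrial muscle, had -0.04, -0.06 and -0.13 with vehicle and 0.14, 0.23 and 0.33 at 50 µg/ml. Its groups did not overlap and it rose by 0.31 ± 0.07 (adjusted p = 0.00816). Whether Kcnj8 and Kcnj11 responded differently was not tested. Kcnj8 and Abcc9 also mark pericytes, and the smooth muscle and pericyte list went both ways at 50 µg/ml. Of its 11 measured genes 2 were higher and 5 lower, with array medians of -0.11 to -0.0029 against -0.0033 to 0.03. Rgs5, a pericyte marker, fell by 0.78 ± 0.06 and the pericyte proteoglycan gene Cspg4 fell by 0.52 ± 0.06. The growth factor receptor gene Pdgfrb rose by 0.29 ± 0.06. The part of these markers in the Kcnj8 and Abcc9 results was not tested.

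The pore subunits of the acetylcholine-activated channel moved in opposite directions. Kcnj3 and Kcnj5 encode proteins that assemble together in atrial and pacemaker cells. Kcnj3 stood at -0.06, -0.03 and -0.19 with vehicle and at 0.53, 0.27 and 0.51 at 50 µg/ml, with no overlap. It rose by 0.53 ± 0.07 (1.44-fold, adjusted p = 0.000272). Kcnj5 stood at 0.18, 0.04 and -0.15 with vehicle and at -0.30, -0.42 and -0.25 at 50 µg/ml, also with no overlap. It fell by 0.34 ± 0.08 (adjusted p = 0.00696). After a repeated quantile normalization Kcnj5 stood at -0.26 and did not pass (adjusted p = 0.0774).

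The strong inward rectifiers, which stabilise the resting potential, did not pass at 50 µg/ml. Kcnj2, the main gene of this current in ventricular muscle, had 0.36, 0.21 and 0.07 with vehicle and -0.09, -0.08 and 0.11 at 50 µg/ml, a difference of -0.23 ± 0.09 (adjusted p = 0.113). Its vehicle value was highest in replicate 1 and the groups overlapped. Its differences at 10 and 1 µg/ml were -0.21 ± 0.09 and -0.31 ± 0.09 against the same 3 vehicle arrays, and neither passed (adjusted p = 0.785 and 0.0874). At 1 µg/ml its arrays lay fully below the vehicle arrays, and it passed with array weights (adjusted p = 0.0304), with the compared groups alone (0.0494) and after quantile normalization was repeated (0.0484). Kcnj4 and Kcnj12 differed from vehicle by 0.07 ± 0.05 and 0.06 ± 0.08 at 50 µg/ml. At 1 µg/ml the Kcnj12 arrays also lay fully below the vehicle arrays, by a difference of -0.21 ± 0.08 that did not pass (limma adjusted p = 0.1825). It passed with array weights (0.0472) and with the compared groups alone (0.0407).

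**Figure D2:**
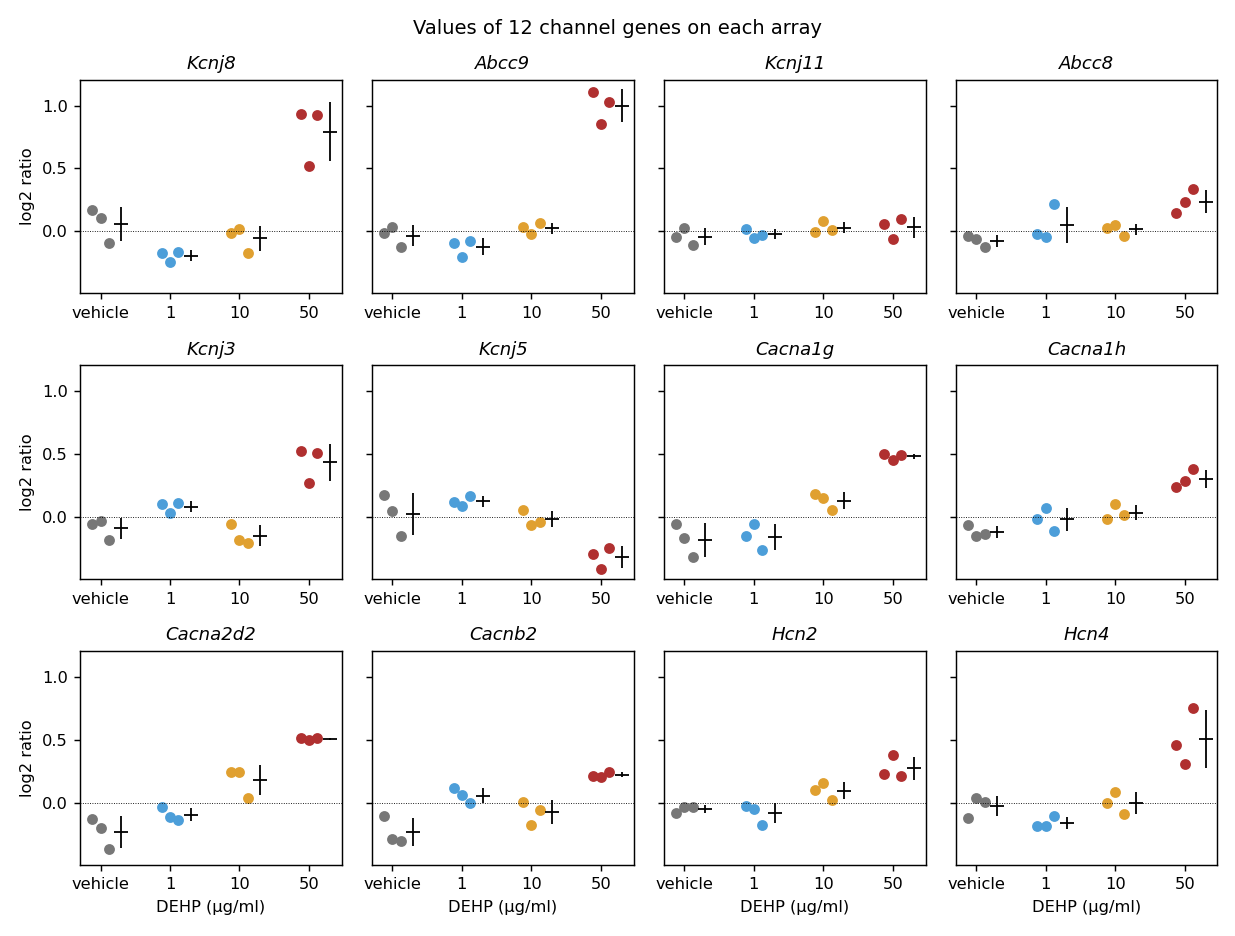
Log2 ratio of 12 channel genes (panels) on each array against DEHP dose, with dots for the 3 arrays of a group and a black bar for their mean ± SD. Kcnj8 and Abcc9 lie between -0.25 and 0.16 in the groups other than 50 µg/ml. Cacna1g, Cacna2d2, Cacna1h, Hcn2 and Abcc8 are also above the vehicle arrays at 10 µg/ml.

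Calcium channel genes were higher at 50 µg/ml in 4 of 6 cases, with 0 lower and a median difference of 0.44. Cacna1g and Cacna1h encode pore subunits of T-type channels, which open at low voltage. Cacna1g had -0.05, -0.17 and -0.32 with vehicle, 0.18, 0.15 and 0.05 at 10 µg/ml and 0.50, 0.46 and 0.49 at 50 µg/ml. The 50 µg/ml arrays lay above all others and nearly together, while vehicle replicate 3 was lowest. Cacna1g rose by 0.66 ± 0.07 (1.58-fold, adjusted p = 3.88e-05). Cacna1h had -0.06, -0.15 and -0.14 with vehicle and 0.24, 0.28 and 0.38 at 50 µg/ml, without overlap. It rose by 0.42 ± 0.06 (adjusted p = 0.000295).

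Accessory calcium channel subunits differed among themselves. Cacna2d2 encodes an α2δ subunit, which helps bring channels to the membrane. It stood at -0.13, -0.20 and -0.37 with vehicle, 0.25, 0.24 and 0.04 at 10 µg/ml and 0.51, 0.50 and 0.51 at 50 µg/ml. The treated arrays at both doses lay above the vehicle arrays, and vehicle replicate 3 was again lowest. It rose by 0.74 ± 0.07 at 50 µg/ml (1.67-fold, adjusted p = 1.29e-05). Its relative Cacna2d1, the main α2δ gene of working heart muscle, stood at 0.11 ± 0.07 and did not pass (adjusted p = 0.332). Cacnb2, the β subunit that regulates the cardiac L-type channel, had -0.11, -0.29 and -0.31 with vehicle and 0.21, 0.21 and 0.25 at 50 µg/ml, again without overlap. It rose by 0.46 ± 0.06 (adjusted p = 0.000291). Cacna1d, an L-type pore subunit of atrial and pacemaker cells, differed by 0.09 ± 0.05 and did not pass (adjusted p = 0.256). Cardiomyocyte markers were also higher on these arrays, in 8 of 12 genes, with array medians of 0.05 to 0.15 against -0.30 to -0.03, and vehicle replicate 3 had the lowest of these medians. Their part in the calcium channel results was not tested. Without vehicle replicate 3 the difference was 0.59 for Cacna1g and 0.67 for Cacna2d2, and both passed.

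Both pacemaker channel genes rose at 50 µg/ml. Hcn4, the main HCN gene of the sinoatrial node, stood at -0.12, 0.03 and 0.0014 with vehicle and at 0.46, 0.31 and 0.76 at 50 µg/ml. The treated arrays lay above the vehicle arrays and spread more widely than them. Hcn4 rose by 0.53 ± 0.09 (1.45-fold, adjusted p = 0.00147). Hcn2, the HCN gene of ventricular muscle, had -0.08, -0.03 and -0.04 with vehicle and 0.23, 0.38 and 0.21 at 50 µg/ml, without overlap. It rose by 0.32 ± 0.06 (adjusted p = 0.00208). Atrial and pacemaker markers went both ways on these arrays, with 5 of 11 higher and 2 lower and array medians of 0.06 to 0.18 against -0.01 to 0.00079. The pacemaker transcription factor gene Tbx3 rose by 0.42 ± 0.06 and the atrial light chain gene Myl7 by 1.45 ± 0.10, whereas Shox2 and Isl1, also of pacemaker tissue, stood at 0.11 and -0.06 and did not pass. The part of these markers in the pacemaker results was not tested.

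**Figure D3:**
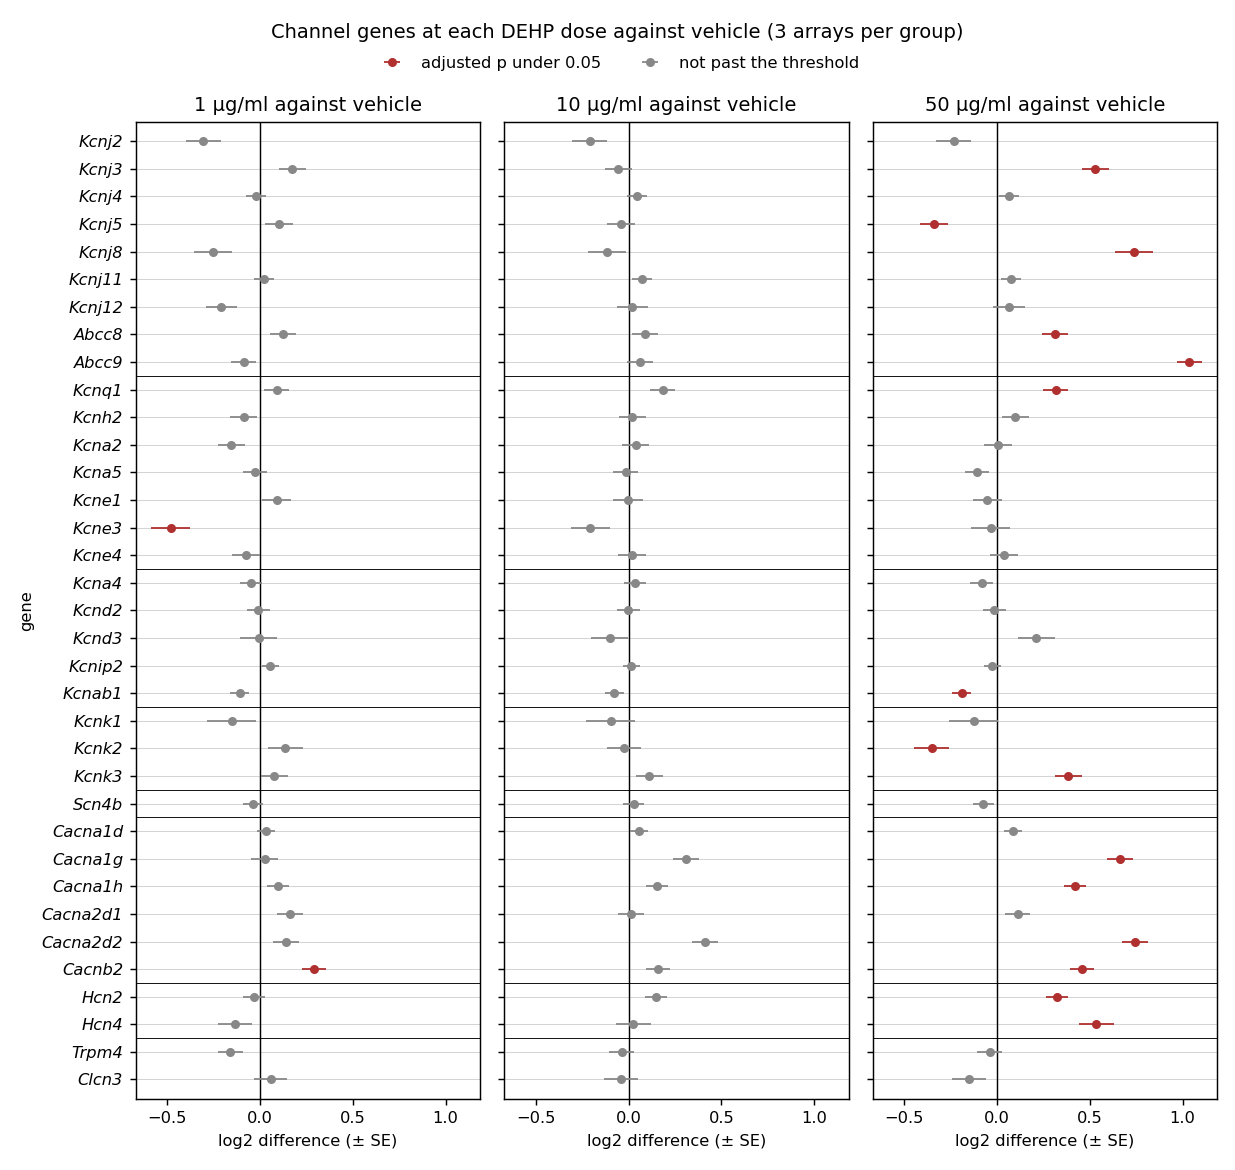
Log2 difference from vehicle with its SE (horizontal axis) for each measured channel gene (vertical axis, grouped by class) at 1, 10 and 50 µg/ml. Red points passed the threshold: 2 at 1 µg/ml, 0 at 10 µg/ml and 15 at 50 µg/ml, where Abcc9 lies farthest right at 1.04.

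Of the 7 delayed rectifier genes, 1 rose at 50 µg/ml and 0 fell. Kcnq1, the pore of the slow delayed rectifier, had -0.03, -0.07 and -0.27 with vehicle and 0.23, 0.16 and 0.19 at 50 µg/ml. The groups did not overlap and vehicle replicate 3 was lowest. It rose by 0.32 ± 0.07 (adjusted p = 0.00556), and by 0.24 without vehicle replicate 3. Its accessory subunit Kcne1 differed by -0.05 ± 0.08, and Kcnh2, the pore of the rapid delayed rectifier, by 0.10 ± 0.07. Kcna5, which carries the ultrarapid current of atrial muscle, and Kcna2 differed by -0.11 ± 0.07 and 0.0039 ± 0.07. The accessory subunits Kcne3 and Kcne4 stood at -0.03 ± 0.11 and 0.04 ± 0.07. None of these 6 passed.

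Among the transient outward genes the pore subunits did not pass at 50 µg/ml. Kcnd2 and Kcnd3, which carry the fast current, differed by -0.02 ± 0.06 and 0.21 ± 0.10, and Kcna4, which carries the slow one, by -0.08 ± 0.06. Kcnip2, the calcium-binding partner of the Kcnd pores, stood at -0.03 ± 0.05, with its 3 treated arrays from -0.04 to -0.03. Kcnab1, a β subunit of voltage-gated potassium channels, had 0.05, 0.13 and 0.06 with vehicle and -0.13, -0.15 and -0.06 at 50 µg/ml. These groups did not overlap, and it fell by 0.19 ± 0.05 (adjusted p = 0.0189). The call was lost without vehicle replicate 2 (0.0832), 50 µg/ml replicate 1 (0.0532) and 50 µg/ml replicate 2 (0.064), where the values in parentheses are the adjusted p.

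The leak channel genes, whose potassium currents help set the resting potential, split. Kcnk3 encodes an acid-sensitive leak channel. It had -0.0037, -0.18 and -0.13 with vehicle and 0.23, 0.29 and 0.32 at 50 µg/ml, without overlap, and rose by 0.38 ± 0.07 (adjusted p = 0.00294). Kcnk2 encodes a leak channel opened by stretch. It had 0.22, -0.01 and -0.19 with vehicle and -0.22, -0.48 and -0.34 at 50 µg/ml, where the lowest vehicle array and the highest treated array were close. It fell by 0.35 ± 0.09 (adjusted p = 0.0208). This call was lost without vehicle replicate 1 (0.0881), vehicle replicate 2 (0.0525), 50 µg/ml replicate 2 (0.0849) and 50 µg/ml replicate 3 (0.0551), again with the adjusted p in parentheses, and after a repeated quantile normalization (-0.24, adjusted p = 0.163). Kcnk1 differed by -0.13 ± 0.13, with a vehicle range of -0.03 to 0.20 and a treated range of -0.27 to 0.15, and did not pass.

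The sodium channel was represented by Scn4b, a β subunit that modifies channel gating. It had -0.02, 0 and 0.11 with vehicle and -0.01, -0.01 and -0.11 at 50 µg/ml. The difference of -0.07 ± 0.06 did not pass (adjusted p = 0.427). Trpm4, a cation channel activated by calcium, and Clcn3, a chloride transporter of the channel family, differed by -0.04 ± 0.07 and -0.15 ± 0.09, and neither passed.

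At the lowest dose, 1 µg/ml, the channel genes passed about as often as all genes. Of the 35 members 1 was higher and 1 lower, which is 5.71% beside 4.24% of all genes (2.51% higher and 1.74% lower), a share near the background. That background is 608 genes and ran from 176 to 1282 genes when 1 array was left out. Arrays of treated and vehicle cells separated fully in 8 members (22.9%), beside 30.8% of all genes. Kcne3, an accessory subunit that keeps Kcnq1 channels open, stood at 0.17, 0.12 and 0.05 with vehicle and at -0.19, -0.50 and -0.41 at 1 µg/ml. The groups did not overlap and it fell by 0.48 ± 0.11 (adjusted p = 0.0265). At 10 and 50 µg/ml it differed by -0.21 and -0.03, and neither passed. Cacnb2 had 0.12, 0.06 and -0.01 at 1 µg/ml, above its vehicle arrays, and rose by 0.29 ± 0.06 (adjusted p = 0.0265). The Kcne3 call was lost without vehicle replicate 1 (0.0898), vehicle replicate 2 (0.0874), vehicle replicate 3 (0.0692), 1 µg/ml replicate 2 (0.0806) and 1 µg/ml replicate 3 (0.0913). For Cacnb2 the call was lost without vehicle replicate 2 (0.107), vehicle replicate 3 (0.113), 1 µg/ml replicate 1 (0.0991), 1 µg/ml replicate 2 (0.063) and 1 µg/ml replicate 3 (0.0521). Endothelial markers were lower at 1 µg/ml in 3 of 10 genes and higher in 0, with array medians of -0.43 to -0.18 against -0.03 to 0.04, and macrophage markers in 2 of 17, with array medians of -0.25 to 0.11 against 0.17 to 0.26. Fibroblast markers were lower in 2 of 12 and higher in 0, with array medians of -0.05 to -0.03 against 0.01 to 0.03, and 1 of 13 neuronal and Schwann markers was higher. Cardiomyocyte markers were higher in 1 of 12 and lower in 0, with array medians of -0.09 to -0.02 against -0.30 to -0.03. The part of these marker lists in the channel calls was not tested.

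At 10 µg/ml 0 members passed against vehicle with limma, and 0 of all genes (0%). At an unadjusted p under 0.05 there were 7 members and 899 of all 14324 genes. The largest member differences at this dose were those of Cacna2d2 at 0.41 ± 0.07 and Cacna1g at 0.31 ± 0.07 (adjusted p = 0.213 and 0.424), and their 3 arrays lay above the 3 vehicle arrays. Without overlap were also Cacna1h, Kcnq1, Hcn2 and Abcc8, making 6 members (17.1%), beside 11.2% of all genes (5.01% higher and 6.22% lower). All 6 were higher. Cardiomyocyte markers lay the same way: 0 of 12 passed, but 12 of 12 had a positive difference, 8 had an unadjusted p under 0.05 and 6 separated fully, with a median difference of 0.20 and array medians of 0.03 to 0.07 against -0.30 to -0.03. Their part in the channel values was not tested. Arrays were also weighted by their scatter around their group means in these same values. Cacna2d2 and Cacna1g then passed at 10 µg/ml in limma (adjusted p = 0.00949 and 0.0287). After a repeated quantile normalization Cacna2d2 passed (0.54, adjusted p = 0.0419) and Cacna1g did not. The 3 comparisons with vehicle share the same control arrays.

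The intermediate doses of the members called in any comparison complete these values. Kcnj8 had -0.18, -0.25 and -0.17 at 1 µg/ml and -0.02, 0.02 and -0.17 at 10 µg/ml, and Abcc9 had -0.10, -0.20 and -0.08 at 1 µg/ml and 0.03, -0.02 and 0.06 at 10 µg/ml. All 3 arrays of Kcnj8 at 1 µg/ml lay below its vehicle arrays, by a difference that did not pass (adjusted p = 0.187). That difference passed when limma was fitted on the compared groups alone (adjusted p = 0.0417). Abcc8 had -0.02, -0.05 and 0.21 at 1 µg/ml and 0.02, 0.05 and -0.04 at 10 µg/ml, where replicate 3 at 1 µg/ml stood above the others. Kcnj3 had 0.10, 0.03 and 0.11 at 1 µg/ml and -0.05, -0.18 and -0.21 at 10 µg/ml, and Kcnj5 had 0.12, 0.08 and 0.17 at 1 µg/ml and 0.05, -0.07 and -0.04 at 10 µg/ml. The 1 µg/ml arrays of Kcnj3 were above the vehicle arrays, and those of Kcnj5 were within them. Cacna1g had -0.16, -0.05 and -0.26 and Cacna2d2 -0.04, -0.11 and -0.14 at 1 µg/ml. Cacna1h had -0.02, 0.07 and -0.11 at 1 µg/ml and -0.02, 0.10 and 0.02 at 10 µg/ml, and Cacnb2 had 0.01, -0.18 and -0.06 at 10 µg/ml. Of these 4 calcium channel genes, Cacna1g, Cacna2d2 and Cacna1h had their 10 µg/ml arrays above the vehicle arrays. Hcn2 had -0.02, -0.05 and -0.18 at 1 µg/ml and 0.10, 0.16 and 0.02 at 10 µg/ml, and Hcn4 had -0.19, -0.19 and -0.11 at 1 µg/ml and -0.0014, 0.08 and -0.09 at 10 µg/ml. Hcn2 at 10 µg/ml lay above the vehicle arrays and Hcn4 overlapped them. Kcnq1 had -0.02, -0.11 and 0.02 at 1 µg/ml and -0.02, 0.15 and 0.04 at 10 µg/ml, and Kcne3 had -0.18, 0.14 and -0.24 at 10 and 0.04, -0.04 and 0.24 at 50 µg/ml. Kcnab1 had -0.02, -0.10 and 0.02 at 1 µg/ml and -0.06, 0.05 and 0.02 at 10 µg/ml. Kcnk2 had 0.07, 0.18 and 0.17 at 1 µg/ml and -0.11, 0.04 and 0.01 at 10 µg/ml, and Kcnk3 had -0.17, 0.08 and 0.0037 at 1 µg/ml and -0.07, -0.04 and 0.13 at 10 µg/ml. Kcnj12 had -0.06, 0.07 and 0.09 with vehicle and 0.0043, 0.25 and -0.09 at 10 µg/ml, with replicate 2 highest.

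The comparisons between doses asked whether the channel genes differed from one dose to another. At 50 against 10 µg/ml 9 members were higher and 2 lower of 35 (31.4%), beside 14.6% of all genes (7.75% higher and 6.85% lower). Arrays of these doses separated fully in 16 members (45.7%), beside 26.2%. Abcc9 was higher by 0.97 ± 0.07, Kcnj8 by 0.85 ± 0.10, Kcnj3 by 0.58 ± 0.07 and Hcn4 by 0.51 ± 0.09. The calcium channel genes Cacna1g, Cacna2d2, Cacnb2 and Cacna1h were higher by 0.35, 0.33, 0.30 and 0.27. A repeated quantile normalization moved Abcc9 to 0.61 (still called, adjusted p = 0.000166), Cacna1g to 0.23 and Cacna2d2 to 0.20. It left 5 of the 11 calls and lost those of Cacna1g, Cacna2d2, Cacnb2, Kcnk3, Kcnj5 and Kcnk2 (adjusted p = 0.128, 0.16, 0.0503, 0.182, 0.163 and 0.27). Kcnk3 was higher by 0.27 ± 0.07, and its call was lost without 10 µg/ml replicate 1 (0.104), 10 µg/ml replicate 2 (0.0554), 50 µg/ml replicate 2 (0.0633) and 50 µg/ml replicate 3 (0.0865). Kcnj5 and Kcnk2 were lower, at -0.30 ± 0.08 and -0.33 ± 0.09. The call of Kcnj5 was lost without 10 µg/ml replicate 1 (0.0728) and 50 µg/ml replicate 2 (0.0652), and that of Kcnk2 without 10 µg/ml replicate 2 (0.0719), 10 µg/ml replicate 3 (0.0841), 50 µg/ml replicate 2 (0.121) and 50 µg/ml replicate 3 (0.0831), with the adjusted p in parentheses. Kcnk2 was also not called with array weights (adjusted p = 0.0798) or when probe sets were tested singly (0.0502). Between these doses macrophage markers were lower in 15 of 17 and higher in 0. Endothelial markers were higher in 5 of 10 and lower in 1, and cardiomyocyte markers in 2 and 0 of 12. The part of these markers was not tested.

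At 50 against 1 µg/ml 12 members were higher and 2 lower of 35 (40.0%), beside 24.9% of all genes (11.5% higher and 13.4% lower). Arrays separated fully in 20 members (57.1%), 17 of them higher and 3 lower, beside 40.9% of all genes (21.4% higher and 19.5% lower). Abcc9 was higher by 1.12 ± 0.07, Kcnj8 by 0.99 ± 0.10, Hcn4 by 0.67 ± 0.09, Cacna1g by 0.64 ± 0.07, Cacna2d2 by 0.60 ± 0.07 and Kcne3 by 0.45 ± 0.11. Kcnj12, a strong inward rectifier, was higher by 0.27 ± 0.08, with -0.11, -0.18 and -0.23 at 1 µg/ml and -0.0043, 0.22 and 0.07 at 50 µg/ml. Its call was lost without 1 µg/ml replicate 2 (0.0796), 1 µg/ml replicate 3 (0.102), 50 µg/ml replicate 2 (0.13) and 50 µg/ml replicate 3 (0.0633), and that of Kcnq1 (0.23 ± 0.07) without 1 µg/ml replicate 1 (0.0599), 1 µg/ml replicate 2 (0.101), 50 µg/ml replicate 1 (0.0728) and 50 µg/ml replicate 3 (0.0656). Kcnj3, Hcn2, Cacna1h and Kcnk3 were also higher, by 0.35, 0.36, 0.32 and 0.31. Kcnk2 and Kcnj5 were lower, at -0.49 ± 0.09 and -0.44 ± 0.08. After a repeated quantile normalization Kcnj3, Kcnj12, Kcnq1 and Kcnk3 were no longer called (adjusted p = 0.0613, 0.0522, 0.139 and 0.0673). At 10 against 1 µg/ml 2 members were higher and 0 lower (5.71%), beside 14.0% of all genes (4.77% higher and 9.20% lower). Arrays separated fully in 11 members (31.4%), beside 30.4%. The 2 called members were Cacna1g at 0.29 ± 0.07 and Cacna2d2 at 0.27 ± 0.07 (adjusted p = 0.0208 and 0.0237). That of Cacna1g was lost without 1 µg/ml replicate 1 (0.0625), 1 µg/ml replicate 3 (0.0887), 10 µg/ml replicate 1 (0.0613) and 10 µg/ml replicate 2 (0.063), and the Cacna2d2 call without 1 µg/ml replicate 2 (0.059), 1 µg/ml replicate 3 (0.0859), 10 µg/ml replicate 1 (0.0719) and 10 µg/ml replicate 2 (0.082). Fitted on the compared groups alone, neither passed (adjusted p = 0.0543 and 0.0651). Cacna1g and Cacna2d2 were thus the members that passed at 10 against 1, at 50 against 10 and at 50 against vehicle. Marker lists moved as well. At 50 against 1 µg/ml endothelial markers were higher in 8 of 10 and lower in 1, and cardiomyocyte markers in 4 and 1 of 12. Macrophage markers were lower in 15 of 17 and higher in 0. At 10 against 1 µg/ml 5 endothelial and 2 cardiomyocyte markers were higher and 0 lower, and 1 macrophage marker was lower and 0 higher. The part of these markers was not tested.

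By the moderated F statistic over the 4 groups 15 of 35 members passed, beside 27.2% of all genes. They were the 15 called at 50 µg/ml without Kcnab1 (adjusted p = 0.0577) and with Kcne3 (adjusted p = 0.0143).

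Other channel genes and channel regulators came from a list of 153 genes, of which 125 were measured. At 50 µg/ml 7 of the 125 were higher, 14 were lower and 104 did not pass the threshold. Over all genes 17.6% passed (8.75% higher and 8.84% lower), so the share of this list was near the background. Further sodium channel subunits had 1 higher and 2 lower of 9. Further calcium channel subunits had 2 higher and 0 lower of 13, further inward rectifiers 0 and 0 of 8, further voltage-gated potassium channels 0 and 2 of 27, and potassium channel accessory subunits 0 and 0 of 12. Leak and calcium-activated potassium channels had 1 and 2 of 13. The remaining pacemaker gene of the list, Hcn3, did not pass (0.10). Chloride and non-selective channels had 1 and 3 of 24, and anchoring and regulatory genes 2 and 5 of 18.

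The 8 of these genes with the smallest p at any dose against vehicle were then read on each array. Rrad, a small GTPase gene whose product inhibits L-type channels through their β subunits, stood at 0.45, 0.32 and 0.08 with vehicle and at -1.30, -1.54 and -1.07 at 50 µg/ml, and fell by 1.58 ± 0.14 (adjusted p = 1.06e-05). Rem1, of the same GTPase family, fell by 0.40 ± 0.09 and Cacna1c, the pore of the cardiac L-type channel, rose by 0.33 ± 0.07; both were chosen after their values were seen, for their link to Cacnb2. Kcnn3, a potassium channel activated by calcium, had -0.03, -0.10 and -0.17 with vehicle and 0.82, 0.76 and 0.92 at 50 µg/ml, and rose by 0.93 ± 0.06 (adjusted p = 4.27e-07). The cation channel gene Trpc6 had 0.12, 0.21 and 0.03 and -1.14, -0.98 and -0.82, and fell by 1.10 ± 0.10 (adjusted p = 9.22e-06). The 50 µg/ml arrays of Rrad, Kcnn3 and Trpc6 did not overlap with vehicle, beside 36.0% of all genes. Their choice by smallest p made this likely, so it adds no support. Popdc2, which binds cyclic AMP and regulates leak channels in the heart, rose by 0.71 ± 0.09, and the heart-specific Lrrc10 by 0.58 ± 0.09. Scn7a, a sodium channel gene of glia and muscle, fell by 0.62 ± 0.10. Kcnk6, a leak channel gene, and Trpv2, a cation channel gene, fell by 0.41 ± 0.07 and 0.42 ± 0.06. Trpv2 is also known from macrophages, whose markers had array medians -1.17 to -0.96 against 0.17 to 0.26 on these arrays, and their part was not tested.

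**Figure D4:**
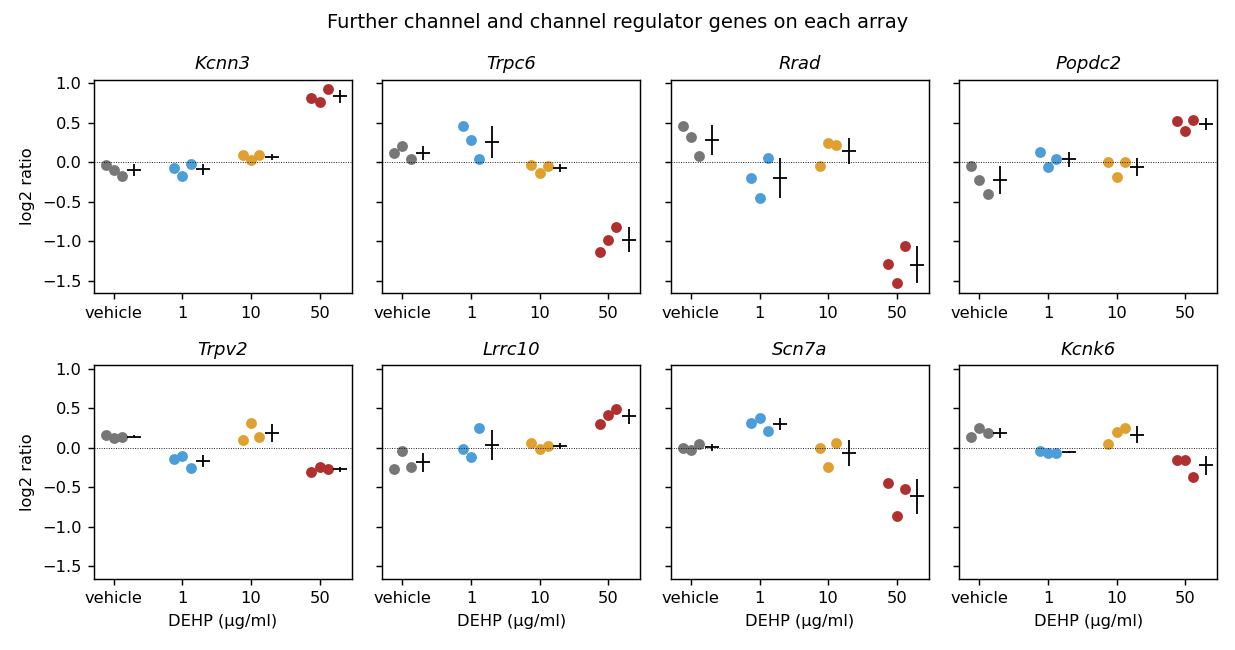
Log2 ratio of 8 further channel and channel regulator genes (panels) on each array against DEHP dose, with dots for the 3 arrays of a group and a black bar for their mean ± SD. The 50 µg/ml arrays run from -1.54 to -1.07 for Rrad, from -1.14 to -0.82 for Trpc6 and from 0.76 to 0.92 for Kcnn3.

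Marker lists of cell types that such cultures can hold were read on the same arrays. At 50 µg/ml the macrophage list had 16 of 17 genes lower and 0 higher, the endothelial list 5 of 10 higher and 1 lower, the epicardial list 3 of 6 higher and 0 lower, and the neuronal and Schwann list 2 of 13 higher and 0 lower. The fibroblast list had 1 of 12 higher and 2 lower, and the ventricular list 2 of 5 higher and 0 lower. Array medians of the endothelial list were 0.21 to 0.30 at 50 µg/ml and -0.03 to 0.04 with vehicle, and those of the fibroblast list -0.03 to 0.03 and 0.01 to 0.03. The values carry no level, so which markers are near 0 cannot be given.

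**Figure D5:**
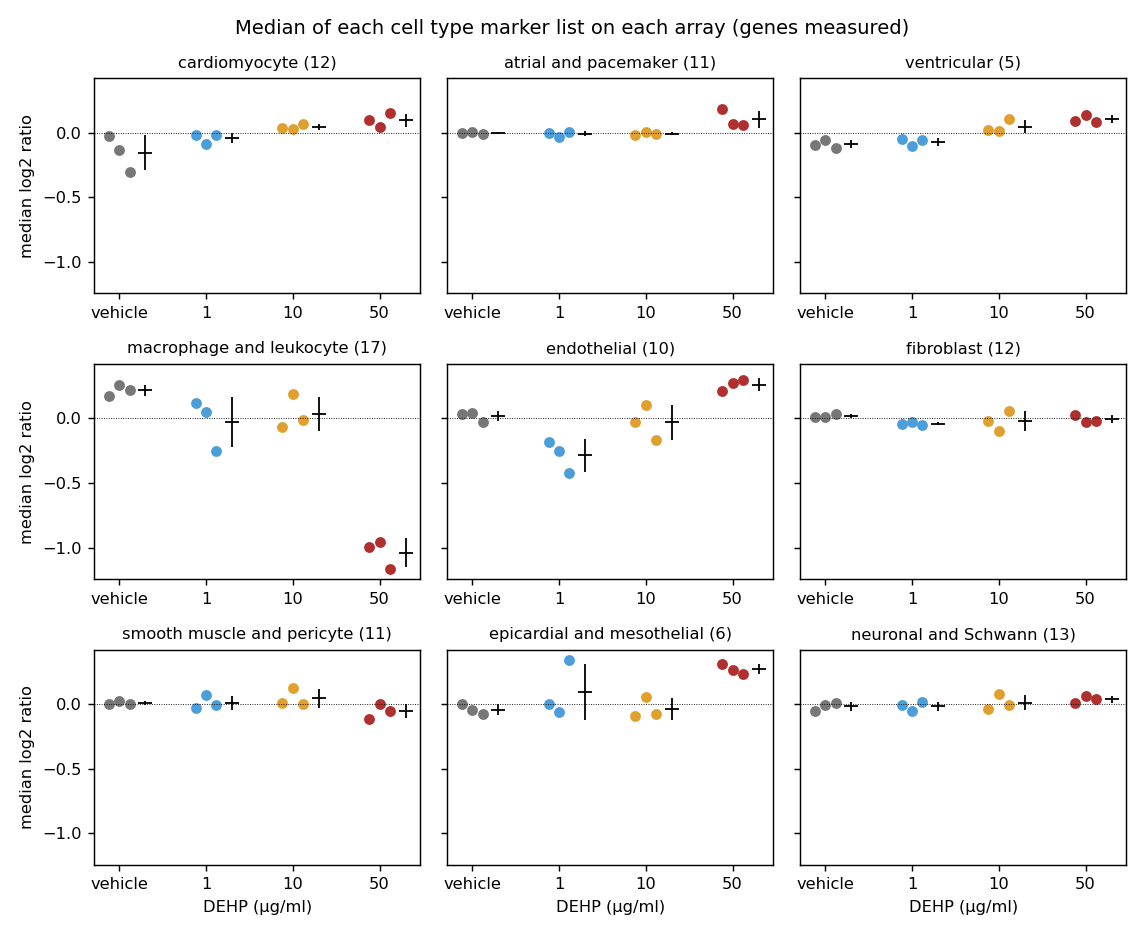
Median log2 ratio of each cell type marker list (panels, number of genes measured in parentheses) on each array against DEHP dose, with dots for arrays and a black bar for the mean ± SD of 3. The macrophage list drops to -1.17 to -0.96 at 50 µg/ml, and the other lists stay between -0.43 and 0.34.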

How the data were processed

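RMA (background correction, quantile normalization, probe summary) was used by the authors, per the submitters' processing notes, without a version. The deposited values were found to be linear ratios to the median of the 12 arrays, because on the log2 scale the 6th and 7th ordered values of a probe set averaged 0 to within 1e-06. The fixed design had assumed log2 levels. A filter on dim probe sets was therefore not run. Of 27342 probe sets 15097 had 1 gene symbol in the platform annotation, 323 several and 11922 none. Ratios were converted to log2, and the probe sets of a gene were averaged (499 of 14324 genes). All 36 member probe sets matched the RefSeq gene table (GRCr8) through their Entrez number, and 0 symbols changed.

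limma 3.58.1 (R 4.3.3) fitted the 4 group means to the 12 arrays together (8 residual degrees of freedom), with empirical Bayes moderation, two-sided tests and Benjamini-Hochberg adjustment over all genes at 0.05. The script was tested on simulated data. An exact permutation of 3 arrays against 3 cannot go below 0.1. Arrays limit precision by their number. The members and gene lists were chosen with earlier results of these data known. Members were described by class, and array values were given for those that passed in any comparison; others outside the list were named by smallest p, up to 8. A few further genes, such as markers named as examples, were picked with their values in view. The settings varied were a quantile normalization repeated on the log2 ratios, median centring, a robust prior and array weights. Further settings were a fit of just the groups compared, a block for replicate number, single probe sets and leaving out each array.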

Additional observations from a re-analysis of the deposited data

How the results depend on the processing

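No called member difference changed sign in any alternative. Of the 15 members called at 50 µg/ml against vehicle, 13 kept the call in each of 12 omissions of an array and 13 in the 7 other settings; of the 2 at 1 µg/ml these numbers were 0 and 2. The count of called members was 15 at 50 µg/ml and ran from 13 to 15 over the omissions; it ran from 0 to 2 at 1 µg/ml (main count 2), 8 to 13 at 50 against 10 (main 11), 12 to 16 at 50 against 1 (main 14), 0 to 4 at 10 against 1 (main 2) and 13 to 16 for the F statistic (main 15), and stayed at 0 at 10 µg/ml. Over all genes the omissions gave 1731 to 3153 at 50 µg/ml (main 2520), 176 to 1282 at 1 µg/ml (main 608), 0 to 1 at 10 µg/ml (main 0), 1534 to 2531 at 50 against 10 (main 2091), 2432 to 4370 at 50 against 1 (main 3562) and 820 to 2694 at 10 against 1 (main 2001). A repeated quantile normalization gave 1 member at 10 µg/ml and 5 at 50 against 10, and over all genes 15 at 10 µg/ml, 1139 at 1 µg/ml and 2321 at 50 against 1. Array weights gave 2 members at 10 µg/ml, 4 at 1 µg/ml and 5 at 10 against 1, and over all genes 90, 1772 and 3155 for these and 3457 at 50 against 10. The fit with only the compared groups, which has fewer arrays, gave 5 members at 1 µg/ml and 0 at 10 against 1, and over all genes 1661 at 1 µg/ml, 1312 at 50 against 10 and 697 at 10 against 1. The cause of these changes was not tested.

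Neither the labels nor the data settled that replicate numbers pair the arrays: deviations from group means correlated from -0.23 to 0.43 over 18 same-number pairs, 6 of them over 0.1, short of the every pair asked for, so the block was kept as an alternative. With the replicate number as a block 15 members passed at 50 µg/ml, 0 at 10 µg/ml, 2 at 1 µg/ml, 12 at 50 against 10, 14 at 50 against 1 and 4 at 10 against 1, the last also holding Hcn2 (higher) and Kcnj3 (lower). A filter on dim genes could not be applied to ratios, which hold no level. With no signal over background in the values, weak probe sets could not be told from strong ones.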
